A study of Acropora tenuis with 242 samples.

Results

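The heat response of juvenile corals under the symbiont uptake treatment labelled D1 was examined in 20 sequencing libraries of Acropora tenuis, a reef-building coral. They are all the D1 juvenile libraries of the crosses CUxDR, DRxSB, LSxLS and SBxSB, the crosses in which D1 was sampled at both temperatures, out of 146 juvenile libraries in a series that also holds 96 larval ones. Parents came from populations of the Great Barrier Reef, offspring were followed from larvae to settled juveniles, and gene expression was counted per gene model by tag-based RNA sequencing, which reads 1 short stretch of each transcript. Juveniles of the series received a symbiont treatment labelled C1, D1, SS or SED and were kept at a temperature labelled Ambient (control) or Hot. CUxDR and DRxSB each had 1 Hot and 4 Ambient libraries, and LSxLS and SBxSB each had 2 Hot and 3 Ambient libraries. A cross is written as the labels write it, with the codes of both parental populations; CUxDR and DRxSB join different populations, and LSxLS and SBxSB join parents of the same one. The temperatures in degrees, the age at sampling, the duration of exposure and the meaning of the treatment codes are not given in the labels. The labels do not state that replicate libraries are from separate cultures, so each p-value reflects the spread among these libraries alone, which may be technical. Models are known here only by identifiers such as Amillepora07197-RA, with no gene names in the files, so each comparison names at most 2 models that rose and 2 that fell, and gives them no function.

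Reef-building corals house photosynthetic algae inside the cells of their inner tissue layer and take most of them up from the environment as larvae or young juveniles. D1 is a code commonly used in coral biology for heat-tolerant algae of the genus Durusdinium, and C1 for algae of the genus Cladocopium. In heat, corals are known to raise protein-folding chaperones and antioxidant enzymes and to lose their algae in bleaching, and partnership with Durusdinium is known to delay that loss. In whole juveniles a lower level can mean fewer cells of a type or less RNA per cell, and these cannot be told apart.

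The libraries of the D1 treatment fell into a pattern that bears on every result below. The column names hold an index number, and juvenile libraries fall into an early and a late stretch of these numbers. Of the 14 Ambient libraries 12 were early, and 2 libraries labelled Ambient, numbered replicate 1 of CUxDR and of DRxSB, were late. The labels give juveniles no replicate numbers, so the numbers used here follow accession order and only name a library. Of the 6 Hot libraries, those of CUxDR and DRxSB and replicate 2 of LSxLS and of SBxSB were late. Replicate 1 of LSxLS and of SBxSB was early, with index numbers 161 and 160, above all early Ambient libraries (65 to 134). What the index stands for is not given in the labels. The position of each library was therefore measured on models that differed between temperatures in the other 3 crosses, so that no library helped to choose the models it was judged by. These models were called without the late Ambient libraries, so the Hot libraries behind them were mostly late and the Ambient libraries all early. Heat and index can therefore not be told apart by a position in the Hot direction. The Hot libraries were shifted in the Hot direction at 84.1% of models at least, with a median of 89.8% and a highest value of 93.8%. The early Ambient libraries were shifted that way at 33.4% to 81.1% of models, with a median of 44.8%. The late Ambient libraries reached 93.4% in CUxDR and 86.1% in DRxSB, which placed them among the Hot libraries and not among the Ambient libraries of their own cross.

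The size of the shift showed the same order. Median shifts were 0.46 to 0.79 on the log2 scale in the 6 Hot libraries, -0.21 to 0.39 in the 12 early Ambient libraries, and 0.84 and 0.54 in the late Ambient libraries of CUxDR and DRxSB. The early Ambient library nearest to Hot was SBxSB Ambient replicate 1, at 0.39 and 81.1%. Over all models, mean correlation with the libraries of other crosses was higher with Hot than with early Ambient libraries for 6 of 6 Hot, 2 of 2 late Ambient and 1 of 12 early Ambient libraries. In CUxDR the Hot library lay beyond the late Ambient library in the Hot direction at 23.6% of 778 models, with a median difference of -0.36 on the log2 scale. In DRxSB it lay beyond at 56.1% of 597 models, with a median difference of 0.08. The main heat results are therefore given with all 20 libraries and with the 18 that remain without the late Ambient libraries.

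**Figure D1:**
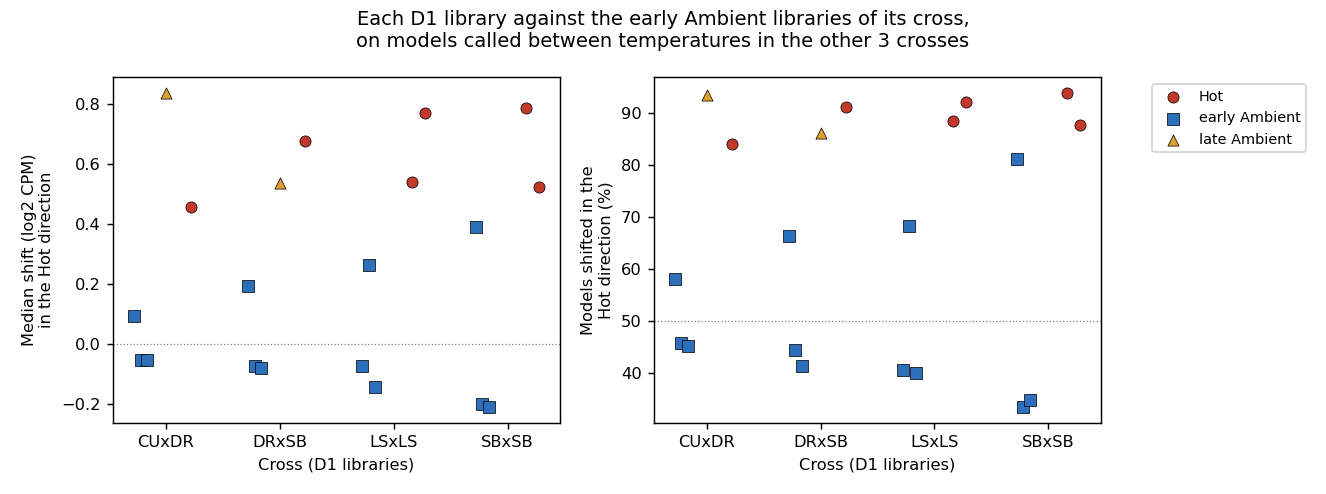
Position of each of the 20 D1 libraries relative to the early Ambient libraries of its own cross, on models called between temperatures in the other 3 crosses, as the median shift in log2 CPM (left) and as the percentage of models shifted in the Hot direction (right). The 6 Hot libraries (circles) and the 2 late Ambient libraries (triangles) lie at 84.1% or higher, and the 12 early Ambient libraries (squares) at 81.1% or lower.

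Total counts of the 6 Hot libraries ran from 376875 to 609085 with a median of 405924, and those of the 14 Ambient libraries from 293640 to 617578 with a median of 379544. At this depth 1 count is worth a few CPM, the unit in which counts are put on a common library size, so values of a few CPM are imprecise. The within-cross difference in total was 55501 counts, smaller than the spread between libraries (exact two-sided permutation within cross, p = 0.303 over 2500 arrangements). After each library was thinned to 293640 counts, 13635 to 14122 models were detected in Hot and 13371 to 14508 in Ambient libraries. The within-cross difference was -301.8 models (exact permutation p = 0.0604), and -392.3 models without the late Ambient libraries (exact permutation p = 0.00125 over 1600 arrangements). Fewer models were thus detected at Hot once the late Ambient libraries were left out, and the part of this in the changes described next was not tested.

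With all 20 libraries, 85 of 8458 gene models tested differed between Hot and Ambient juveniles (1%), 41 higher at Hot (0.485%) and 44 lower (0.52%), by edgeR's quasi-likelihood test with cross as a term and a Benjamini-Hochberg adjusted p under 0.05. Of these, 37 differed at least 2-fold, 18 higher and 19 lower. Without the late Ambient libraries, 1075 of 8289 models differed (13%), 584 higher (7.05%) and 491 lower (5.92%), and 317 differed at least 2-fold, 147 higher and 170 lower. All 85 models were also called among the 1075, in the same direction, which is favoured because the second fit uses 18 of the same 20 libraries. The count rested on single libraries: it was 799 without CUxDR Ambient replicate 1 and 3 without LSxLS Hot replicate 1.

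Amillepora07197-RA showed the largest rise among the models that qualified for naming. Its level at Hot was 907.9 CPM in CUxDR, 371.1 in DRxSB, 690.7 and 521.7 in LSxLS, and 318.2 and 570.0 in SBxSB. In the 12 early Ambient libraries it ran from 6.71 to 200.8 CPM with a median of 43.1. Every Hot library lay above every early Ambient library, but the late Ambient libraries held 236.02 CPM (CUxDR) and 669.9 CPM (DRxSB), and the latter exceeded the Hot library of its own cross. The model rose by 2.77 on the log2 scale (SE 0.63, edgeR adjusted p = 0.0427), or 6.84-fold, and by 3.26 (SE 0.43, adjusted p = 9.80e-05), or 9.57-fold, without the late Ambient libraries. With all libraries the call was near its threshold, and it was lost in 16 of 20 fits that left out 1 library.

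The second riser, Amillepora13447-RA, was at 111.2 CPM in the Hot library of CUxDR and 188.1 CPM in that of DRxSB. It held 139.1 and 260.8 CPM at Hot in LSxLS, and 299.2 and 150.4 CPM in SBxSB. The early Ambient libraries held 14.2 to 55.6 CPM with a median of 25.2, so they did not overlap with Hot. The late Ambient libraries, at 284.6 CPM in CUxDR and 153.05 CPM in DRxSB, lay inside the Hot range. The rise was 2.09 on the log2 scale (SE 0.51, edgeR adjusted p = 0.0492), and 2.64 (SE 0.23, adjusted p = 9.49e-07) without them. This call too was near its threshold with all libraries, and was lost in 17 of 20 fits that left out 1 library.

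Among the falling models that qualified for naming, Amillepora05825-RA had the largest fold. It was at 10.3 CPM in the Hot library of CUxDR, at 4.71 and 21.1 CPM in LSxLS, and at 5.44 and 7.28 CPM in SBxSB. The Hot library of DRxSB held 0 counts of it, which allows up to 5.13 CPM at the limit of 3 counts, by counting error only. Its early Ambient libraries ran from 13.1 to 110.3 CPM with a median of 32.7, and overlapped with Hot only through LSxLS Hot replicate 2. Unlike the rising models, the late Ambient libraries held Ambient levels of this one, 72.9 CPM in CUxDR and 20.1 CPM in DRxSB. The model fell by 2.50 on the log2 scale (SE 0.44, edgeR adjusted p = 0.0169), and by 2.49 (SE 0.46, adjusted p = 0.00159) without the late Ambient libraries. These levels rest on 0 to 8 counts per Hot library.

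Amillepora04321-RA, the other model that fell, was far more abundant. It held 54.3 CPM at Hot in CUxDR, 83.8 in DRxSB, 84.9 and 79.0 in LSxLS, and 43.5 and 60.6 in SBxSB. The early Ambient libraries held 217.4 to 539.6 CPM with a median of 411.0, well clear of the Hot libraries. The late Ambient libraries, at 24.3 CPM in CUxDR and 97.8 CPM in DRxSB, lay below or just above the Hot range. The log2 fold change was -2.35 (SE 0.43, edgeR adjusted p = 0.0181), a 5.09-fold fall, and -2.48 (SE 0.21, adjusted p = 5.38e-07) without them. Its call was lost in 4 of 20 fits that left out 1 library, and that of Amillepora05825-RA in 1.

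The model with the smallest p with all libraries was Amillepora32533-RA, which is described here although it was chosen after its values were seen. It was at 2.59 CPM at Hot in CUxDR, 6.84 in DRxSB, 21.2 and 7.90 in LSxLS, and 21.8 and 17.0 in SBxSB. The early Ambient libraries held 26.8 to 93.8 CPM with a median of 48.0, all above every Hot library, and the late Ambient libraries held 10.4 CPM in CUxDR and 10.04 CPM in DRxSB. It fell by 2.23 on the log2 scale (SE 0.35, edgeR adjusted p = 0.00923), and it stayed called in each of the 20 fits that left out 1 library. The call was lost with the stretch of index numbers as a term (log2 fold change -1.495, edgeR adjusted p = 0.419). It was also lost in the early libraries alone (-1.786). The same held in CUxDR and DRxSB alone (-2.563) and in fits without LSxLS (-2.176) or without SBxSB (-2.421), where no model passed. This model was nearly restricted to D1 juveniles: over all crosses it had a median of 38.4 CPM in 32 D1 Ambient libraries, against 1.86 CPM in 29 C1 Ambient libraries. It was at 0 in 18 of 28 SED and 22 of 30 SS Ambient libraries, and reached at most 7.81 and 7.78 CPM there. In larvae, which are a separate table with its own scaling, the highest cross mean was 2.44 CPM.

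**Figure D2:**
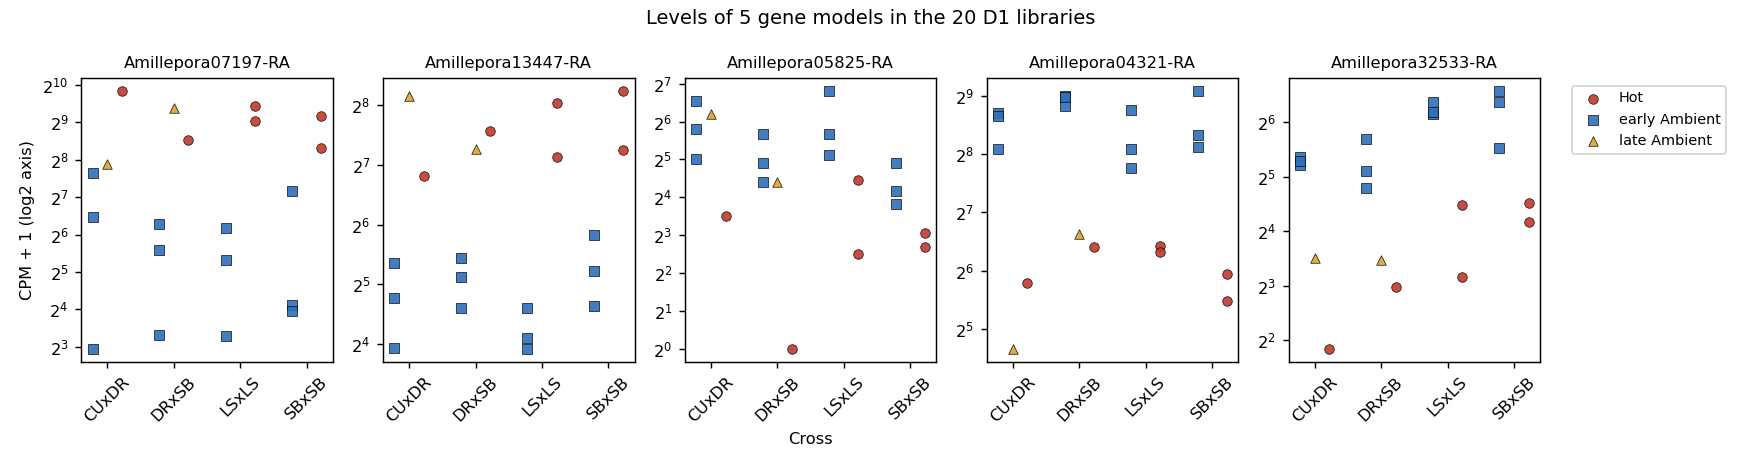
Levels of the 5 models just described in the 20 D1 libraries, as CPM + 1 on a log2 axis, by cross. Hot libraries (circles) and early Ambient libraries (squares) separate in every panel except for 1 overlap in Amillepora05825-RA, and the late Ambient libraries (triangles) lie with or near Hot in 4 panels and with Ambient in Amillepora05825-RA. The models were chosen for a difference between Hot and Ambient, which favours such separation.

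The same comparison within each stretch of index numbers asked whether heat and index can be separated. In the late libraries alone, where both temperatures were present only in CUxDR and DRxSB, with 1 Hot and 1 Ambient library each, 0 of 7747 models passed edgeR's test (1.59% at an unadjusted p under 0.05). With the stretch as a term in the fit of all 20 libraries, 0 of 8458 passed (6.35% unadjusted). In the early libraries alone, where 2 Hot libraries of LSxLS and SBxSB met 6 Ambient libraries of the same crosses, 3 models passed, all higher at Hot, of 7655 (14.1% unadjusted). Amillepora07197-RA differed by 3.26 on the log2 scale in the early libraries (adjusted p = 0.0999) and by 0.53 in the late ones (adjusted p = 0.9998), so it passed in neither. Amillepora13447-RA was one of the 3 models called in the early libraries and rose by 2.94 on the log2 scale (adjusted p = 0.00158), but it differed by -0.53 in the late libraries alone (adjusted p = 0.9998). Amillepora04321-RA differed by -2.41 in the early libraries (adjusted p = 0.0662) and by 0.36 in the late ones (adjusted p = 0.9998), while Amillepora05825-RA differed by -2.96 and -3.32 (adjusted p = 0.149 and 0.9998). For CUxDR and DRxSB, whose Hot libraries were all late, heat and index cannot be told apart except against the late Ambient libraries. With 1 Hot and 1 late Ambient library in each of these crosses, the late libraries alone were too few to decide. Within the early stretch both Hot libraries had higher index numbers than every Ambient library, so heat and index number cannot be told apart there. The fit with the stretch as a term separates heat from the stretch only through the 2 late Ambient and the 2 early Hot libraries. That no model passed is therefore no sign that Hot and late Ambient libraries are alike.

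Crosses with no library in common were then set against each other, a comparison chosen after the data were seen. In LSxLS and SBxSB alone 3.86% of 7376 models passed edgeR's test, 174 higher and 111 lower. Of those measured in CUxDR and DRxSB without the late Ambient libraries, 260 models (95.9%) had the same direction there, against 69.7% of all models, and their median change was 0.71 on the log2 scale in the direction of the first pair. In the late libraries of CUxDR and DRxSB, where the late Ambient libraries are the only controls, 96 (35.8%) had the same direction, against 44.7% of all models. In the reverse test, CUxDR and DRxSB without the late Ambient libraries gave 110 calls of 8036 (1.37%), and 103 of 108 (95.4%) had the same direction in the early libraries of LSxLS and SBxSB, against 68.2% of all models. Models called with late Hot libraries against early controls mostly moved the same way between early Hot and early Ambient libraries of other crosses. The early side of this comparison rests on Hot replicate 1 of LSxLS and of SBxSB alone. Both had higher index numbers than every early Ambient library, so heat and index cannot be told apart on that side either. The parts of heat and index in the shared direction were not tested.

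Each cross was also set against models called in the other 3 crosses without the late Ambient libraries. The Hot libraries of LSxLS moved in the same direction at 93.8% of 416 models, those of SBxSB at 92.8% of 503, that of DRxSB at 91.1% of 597 and that of CUxDR at 84.1% of 778. Median shifts were 0.65, 0.67, 0.68 and 0.46 on the log2 scale in that order. With the late Ambient libraries among the controls the share in CUxDR was 73.5% and that in DRxSB 88.3%. CUxDR had the lowest share and the lowest shift in both versions, from a single Hot library with no replicate of its own.

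Whether the heat response differed between crosses was tested directly. No model of 10041 passed edgeR's test of the 3 cross-by-temperature terms (0%; 2.88% at an unadjusted p under 0.05), and DESeq2's likelihood ratio test also gave 0 (1.80% unadjusted). The contrast of the between-population crosses CUxDR and DRxSB with the within-population crosses LSxLS and SBxSB gave 0 of 10041 (0%; 4.11% unadjusted) with edgeR and 0 (2.42% unadjusted) with DESeq2. Without the late Ambient libraries both were 0 of 9838 (4.27% and 5.07% unadjusted, edgeR). Differences between crosses were therefore not detectable here, with 1 Hot library in CUxDR and in DRxSB, whose spread was borrowed from the other groups. Against early Ambient libraries, the difference in mean log2 CPM ranged across crosses from 3.20 in DRxSB to 4.05 in LSxLS for Amillepora07197-RA, and from -2.73 in SBxSB to -1.82 in LSxLS for Amillepora04321-RA. With the late Ambient libraries among the controls, the difference was 2.18 in DRxSB for Amillepora07197-RA and -1.71 in CUxDR for Amillepora04321-RA.

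Heat in D1 was next compared with heat in SED juveniles of the same crosses, 8 Hot and 11 Ambient libraries. The difference between the temperature effects passed edgeR's test for 37 of 9074 models (0.408%), 28 more positive in D1 and 9 more negative. In 34 of the 37 the effects had opposite signs, and in 28 the fitted change was positive in D1 and negative in SED. The 37 were chosen by the difference between the effects, which favours opposite signs. Over all 9074 models, 65% had the same sign in D1 and SED. Amillepora07197-RA differed most in the positive direction: it changed by 2.76 on the log2 scale in D1 and by -2.60 in SED, a difference of 5.37 (SE 1.02, adjusted p = 0.00588). Amillepora01116-RA changed by 1.86 in D1 and -1.32 in SED, a difference of 3.18 (SE 0.50, adjusted p = 0.00102). In the other direction, Amillepora03350-RA changed by -1.79 in D1 and 1.58 in SED (difference -3.37, SE 0.76, adjusted p = 0.0304). Amillepora06399-RA changed by -1.64 and 1.43 (difference -3.07, SE 0.57, adjusted p = 0.00440).

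The levels behind these differences are given for the juvenile libraries of all crosses. Amillepora07197-RA was at a median of 545.8 CPM in the 6 D1 Hot libraries (318.2 to 907.9). It was also high in SED Ambient libraries of all crosses (median 583.3, range 38.2 to 1734, n = 28) and in SS Ambient libraries (346.4, 196.9 to 1111, n = 30). It was low in C1 Ambient (24.7, 2.97 to 52.8, n = 29), SED Hot (24.1, 7.50 to 322.8, n = 15) and SS Hot libraries (16.4, 4.77 to 22.5, n = 6). In the 4 crosses of the heat comparison SED Hot was higher, with a median of 131.6 CPM (n = 8), and its highest library overlapped with the lowest of D1 Hot. The ranges of D1 Hot and SS Hot did not overlap. Amillepora06399-RA had the reverse order: medians were 209.2 CPM in D1 Hot (165.5 to 271.4), 201.3 in SS Ambient (101.7 to 501.9), 665.7 in C1 Ambient, 740.7 in SS Hot and 877.3 in SED Hot libraries of all crosses. SED Ambient libraries ran from 101.5 to 590.6 CPM. In the 4 crosses of the heat comparison the SED medians were closer, 245.3 at Ambient and 406.3 at Hot, with 303.8 CPM as the lowest SED Hot value. In D1 at Ambient it was at 382.4 to 1187 CPM in the early libraries of these crosses, and at 159.7 CPM (CUxDR) and 205.7 CPM (DRxSB) in the late ones. In both models D1 Hot thus lay at the level of SS and SED juveniles at Ambient.

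In SED, 7 of the 8 Hot libraries and 0 of the 11 Ambient libraries were late, so temperature and index cannot be told apart there either. With the late Ambient libraries left out of D1, 93 of 8998 models passed, 66 more positive in D1 and 27 more negative. The count was 21 without SBxSB SED Ambient replicate 1 and 70 without CUxDR D1 Ambient replicate 1, and the 4 named differences kept their sign in all 39 fits that left out 1 library, though Amillepora03350-RA lost its call in 10 of them.

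**Figure D3:**
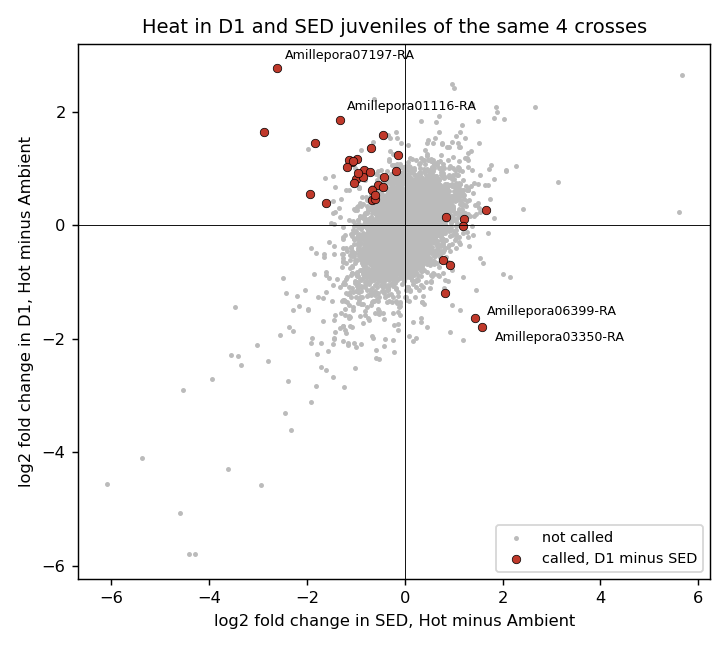
Log2 fold change between Hot and Ambient in SED (horizontal axis) and D1 juveniles (vertical axis), from the joint fit of the same 4 crosses. Points are the models tested both there and in the D1 heat fit, and red points are those whose difference passed the test. Most red points lie in the upper left, where the model was higher at Hot in D1 and lower at Hot in SED.

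The SS treatment had Hot libraries in 2 of these crosses, DRxSB and SBxSB, with 4 Hot and 6 Ambient libraries. The difference between heat in D1 and heat in SS passed edgeR's test for 37 of 9118 models (0.406%), 34 more positive in D1 and 3 more negative. Signs were opposite in 22 of these, which the choice by difference favours. Over all 9118 models, 63.6% had the same sign in D1 and SS. The median absolute change of these models was 0.60 on the log2 scale in D1 and 2.87 in SS. Amillepora07197-RA again led, at 2.07 in D1 and -4.74 in SS (difference 6.80, SE 1.20, adjusted p = 0.00637). Amillepora15375-RA changed by 1.01 in D1 and -4.87 in SS (difference 5.88, SE 0.84, adjusted p = 5.92e-04). Over all crosses it was at 21.8 to 160.3 CPM in D1 Hot, 26.5 to 248.3 CPM in SS Ambient and 0 to 5.20 CPM in SS Hot libraries, where 4 of 6 held no count. In the 2 crosses compared, 2 of 4 SS Hot libraries held no count. The D1 Hot libraries there held 49.6 CPM (DRxSB), 21.8 and 29.1 CPM (SBxSB), and the late Ambient library of DRxSB held 60.2 CPM. Its change in the D1 heat fit was not called (1.31, SE 0.42, edgeR adjusted p = 0.0966). In the other direction, Amillepora03350-RA differed by -4.71 (-2.10 in D1, 2.61 in SS, SE 0.86, adjusted p = 0.00923) and Amillepora04321-RA by -3.84 (-2.58 in D1, 1.25 in SS, SE 0.60, adjusted p = 0.00156). Both comparisons share the D1 libraries of DRxSB and SBxSB, so they are not independent of each other. Of the SS libraries, 3 of 4 Hot and 0 of 6 Ambient were late. Without the late Ambient library of DRxSB, 49 of 9066 models passed, and the count was 22 without SBxSB D1 Hot replicate 1.

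**Figure D4:**
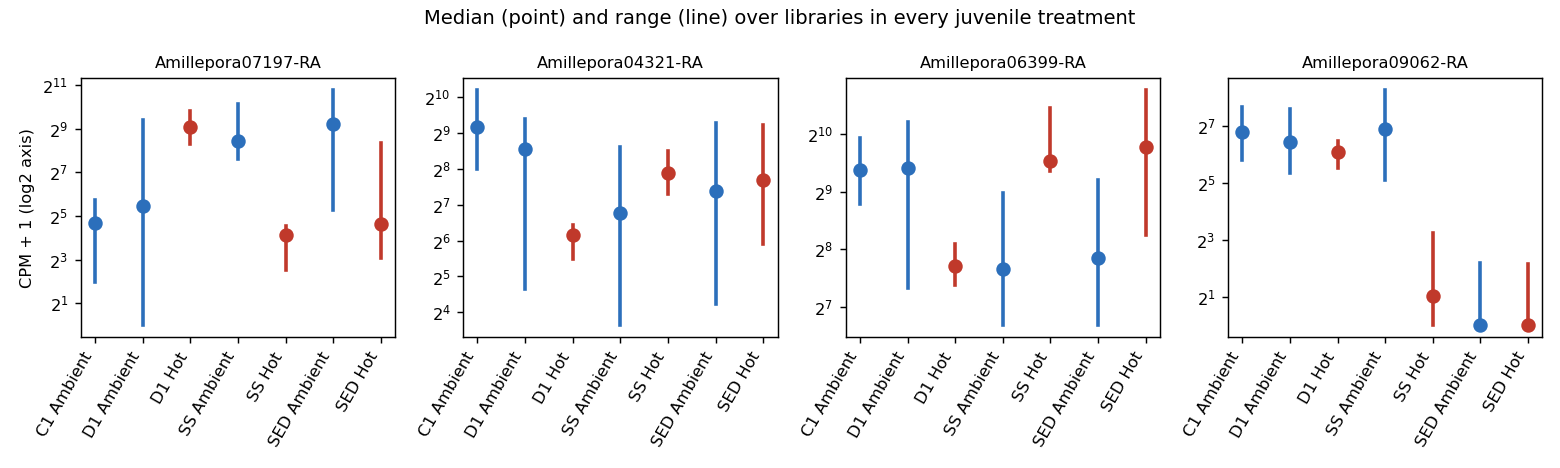
Median (point) and range (line) of CPM + 1, on a log2 axis, for 4 models in every juvenile symbiont treatment and temperature over all crosses; the D1 Ambient ranges include the 2 late Ambient libraries. D1 Hot lies near SS Ambient and SED Ambient in Amillepora07197-RA and Amillepora06399-RA, but in Amillepora09062-RA it stays with C1, D1 and SS Ambient.

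Models chosen in other libraries were then followed in the D1 heat fit, as a description without a test, with 47.3% of all 8458 models higher at Hot a median change of -0.03 on the log2 scale and 1% called (0.485% upward, 0.52% downward) as the background. The background in the fit of 18 libraries was 48.0% higher, a median of -0.02 and 13% called. Larval heat models came from 60 larval libraries of 10 crosses. Of the 2331 models higher in heated larvae, 65.2% were higher at Hot in D1 juveniles, with a median of 0.14, and 29 passed upward and 3 downward (1.37%). Of the 1920 models lower in heated larvae, 30.7% were higher at Hot, with a median of -0.18, and 3 passed upward and 23 downward (1.35%). Both shares called were close to the background. With the late Ambient libraries left out, 66.3% and 31.4% were higher at Hot, and 18.7% and 13.1% of the lists were called. The direction in larvae and D1 juveniles was thus shared more often than over all models, but the median changes were small.

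The models at the ends of the larval list did not all follow. Amillepora13086-RA, the largest riser in larvae (log2 fold change 5.67 there, SE 0.47), had a fitted change of -0.41 in D1 (SE 0.78, edgeR adjusted p = 0.810), with 12.9 to 172.7 CPM at Hot and 2.83 to 269.3 CPM in early Ambient libraries. Amillepora13087-RA, at 4.48 in larvae, was at 0.91 in D1 (SE 0.42, adjusted p = 0.224), and at 1.07 (SE 0.33, adjusted p = 0.0366) without the late Ambient libraries. It was among the most abundant of the models named, at 2876 to 5173 CPM in Hot and 560.2 to 5714 CPM in early Ambient libraries, so the ranges overlapped. Amillepora04321-RA, at -3.62 in larvae, fell in D1 as given above. Amillepora19085-RA, at -3.44 in larvae, was at -1.90 in D1 (SE 0.82, adjusted p = 0.192).

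Lists from the Ambient libraries of the 6 crosses outside the heat comparison described how the treatments differ without heat. Of 145 models higher in D1 than in C1, 31.7% were higher at Hot in D1 (median -0.15), and 1 passed upward and 2 downward (2.07%). Of 225 models lower in D1 than in C1, 62.2% were higher at Hot (median 0.14), and 3 passed upward and 0 downward (1.33%). These directions were not seen in the members that differed at least 2-fold between D1 and C1, of which 50% of 14 and 44% of 25 were higher at Hot (medians -0.02 and -0.09). Models that distinguish SED from D1 moved with larger medians: of 177 higher in SED, 70.1% were higher at Hot in D1 (median 0.30; 10 upward, 0 downward, 5.65%), and of the models lower in SED, 31.3% were (median -0.22; 0 upward, 12 downward, 4.88%). The short lists between SS and D1 showed the widest separation. Of 42 models higher in SS, 81.0% were higher at Hot in D1 (median 0.63; 6 upward, 0 downward, 14.3%), and of 32 lower in SS, 12.5% were (median -0.44; 0 upward, 4 downward, 12.5%). Without the late Ambient libraries the shares higher at Hot were 34.0% and 63.4% for D1 against C1, 70.5% and 31.8% for SED, and 81.0% and 12.5% for SS, in the same order. The shares called were then 20.8% and 22.3%, 28.9% and 24.9%, and 57.1% and 43.8%, against 13% of all models. D1 juveniles at Hot were on this measure displaced toward the SED and SS profiles of Ambient juveniles. With smaller medians the full lists moved toward C1 as well. All these lists have D1 at Ambient as one side. A move toward another treatment can therefore not be told apart from a move away from the D1 Ambient profile. The D1 Hot libraries were mostly late, and the part of index in this was not tested.

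Single models of these lists differed from that displacement. Amillepora09062-RA, which at Ambient was lower in SED than in D1 (log2 fold change -7.47, SE 0.41), held 44.5 to 86.9 CPM in D1 Hot and 56.2 to 125.2 CPM in early D1 Ambient libraries, and its change of -0.52 did not pass (SE 0.23, edgeR adjusted p = 0.212). In SED it was at 0 in 26 of 28 Ambient and 13 of 15 Hot libraries, so D1 Hot juveniles were clearly apart from SED in this model. Amillepora07197-RA, the model most raised in SED against D1 (3.33, SE 0.38), was the leading riser at Hot in D1 as given above. Amillepora01102-RA, the next (2.93 in SED against D1), was at 1.05 in D1 heat (SE 0.46, adjusted p = 0.197), and Amillepora04293-RA (-6.11 in SED against D1) at 0.42 (SE 0.55, adjusted p = 0.701). From the list of D1 against C1, Amillepora23389-RA (2.87 there) was at 1.63 in D1 heat (SE 0.55, adjusted p = 0.105), and at 1.98 (SE 0.45, adjusted p = 0.00700) without the late Ambient libraries. It held 745.2 to 1361 CPM at Hot and 38.0 to 762.6 CPM in early Ambient libraries, which barely overlapped. Amillepora10467-RA, Amillepora08383-RA and Amillepora19157-RA had changes of 0.16, 0.75 and -1.97 in D1 heat (edgeR adjusted p = 0.847, 0.608 and 0.186).

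Models that answered heat in SED juveniles moved in the same direction in D1 at the level of the whole list. The list came from 15 Hot and 19 Ambient SED libraries of 7 crosses and shares no library with the D1 comparison. Of its 1026 rising models, 87.3% were higher at Hot in D1, with a median of 0.32, and 23 passed upward and 1 downward (2.34%, against 1% of all models). Of its 975 falling models, 14.2% were higher at Hot in D1, with a median of -0.33, and 7 passed upward and 27 downward (3.49%). Without the late Ambient libraries 88.1% and 14.2% were higher at Hot, and 28.1% and 24.9% were called, against 13% of all models. The models with opposite signs in D1 and SED described above were thus a small set beside a larger one that moved alike. In both treatments the Hot libraries were mostly late and the Ambient libraries early, and the part of this in the shared direction was not tested.

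**Figure D5:**
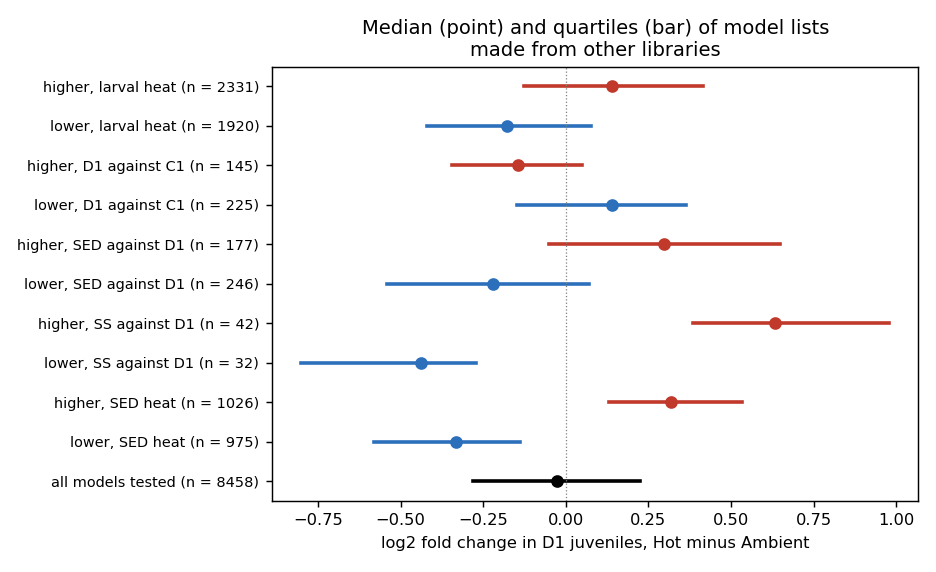
Median (point) and quartiles (bar) of the log2 fold change between Hot and Ambient in D1 juveniles for models higher (red) or lower (blue) in comparisons made on other libraries, with all 8458 models tested in black. SED heat and the 42 models higher in SS than in D1 stand farthest to the right (medians 0.32 and 0.63), and the models lower in those comparisons to the left (-0.33 and -0.44).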

How the data were processed

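The authors deposited raw read counts per gene model for each life stage (25349 models in juveniles), and all columns were matched to samples by title. Per the labels' protocols, RNAqueous kits gave the RNA for tag-based sequencing. The tool listed is Bowtie2 2.2.9, with no role stated, per the submitters' processing notes. How reads were counted, on which reference, and whether duplicate or algal reads were removed is not stated in the sources used here. The model identifiers carry the name Amillepora, although the samples are of Acropora tenuis. Juvenile column names hold the word host, and larval ones do not. A value can hold reads of near-identical copies.

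Counts were analysed in R 4.3.3 with edgeR 4.0.16 (filterByExpr, TMM scaling, glmQLFit and glmQLFTest, cross as a term), checked on simulated data, with Benjamini-Hochberg adjustment over all models tested and calls at 0.05. DESeq2 1.42.0 was the alternative test. CPM are on TMM sizes, and log2 CPM used a prior count of 2. Larval counts were summed per cross and treatment. Fold changes are fitted values. The 20 pairs of replicate libraries all differed by more than counting error (chi-square over its degrees of freedom 2.22 to 9.46), so none was merged. A printed SE is the fitted change over the root of its F statistic.

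Named models were the 2 with the largest change per direction among those called, with mean log2 CPM of at least 5 and, for heat, the same sign in 4 crosses; those called with and without the late Ambient libraries came first, and list models were named whatever they did in D1. Samples, lists and the index split were chosen with earlier results of these data known. Settings varied were the test, scaling, filter, threshold, depth, samples, crosses and index stretch.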

Additional observations from a re-analysis of the deposited data

Results flagged for a closer look

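A Dixon test of the highest and lowest library was run in 20 groups of 4 D1 Ambient libraries (library measures and named models), and chance flags about 1 in 20 such groups. All flagged values belonged to the late Ambient libraries. Only CUxDR and DRxSB had 4 Ambient libraries, 1 of them late in each, so those of LSxLS and SBxSB could not be flagged. The flagged models had been chosen for a difference between Hot and Ambient in these same libraries, which favours flags in a library near Hot levels. In CUxDR Ambient replicate 1, Amillepora13447-RA was at 284.6 CPM (14.2 to 40.2 in the other replicates), Amillepora32533-RA at 10.4 CPM (36.2 to 40.2), and 13371 models were detected at equal depth (14222 to 14332). In DRxSB Ambient replicate 1, Amillepora07197-RA was at 669.9 CPM (8.94 to 77.1), Amillepora13447-RA at 153.05 CPM (23.5 to 42.5) and Amillepora04321-RA at 97.8 CPM (451.5 to 510.0). The groups share libraries, so the flags are not independent of each other.

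The temperature effect in D1 differed from that in SED, by edgeR's test of the difference, for Amillepora07197-RA (5.37 on the log2 scale), Amillepora01116-RA (3.18), Amillepora03350-RA (-3.37) and Amillepora06399-RA (-3.07). It differed from that in SS for Amillepora07197-RA (6.80), Amillepora15375-RA (5.88), Amillepora03350-RA (-4.71) and Amillepora04321-RA (-3.84). These are the models named by rule, so they were selected for large differences, and Hot libraries in all these treatments were mostly late. What sets the late Ambient libraries apart was not tested.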

How the results depend on the processing

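Results are given as shares of the models tested, whose number differed between settings. The share called for heat in D1 (85 models) moved to 13.0% (1075) without the late Ambient libraries, 0% with the index stretch as a term, 0% in the late and 0.0392% in the early libraries alone, 3.86% in LSxLS and SBxSB, 0% in CUxDR and DRxSB (3.91% at an unadjusted p under 0.05, edgeR), 4.77% in a fit of 69 juvenile libraries, 3.95% (334) with DESeq2, 3.56% (799) without the low-count filter and 5.71% (483) at a false discovery rate of 0.1. Without CUxDR it was 5.69%, without DRxSB 0.308%, and without LSxLS or SBxSB 0% (11.95% and 12.94% unadjusted). Leaving out single libraries gave 0.0357% to 9.51%. The share of 13.0% became 19.5% at 0.1, 5.86% on sums per cross, 7.50% without DRxSB, 5.17% without LSxLS, 6.43% without SBxSB, and 7.60% to 14.7% without single libraries; these settings were chosen after the data were seen. In the late libraries alone Amillepora13447-RA reversed to -0.53 and Amillepora04321-RA to 0.36, and the cause was not tested. On counts summed per cross and temperature Amillepora13447-RA was not called (1.79 on the log2 scale). DESeq2 gave no adjusted p for Amillepora13447-RA, Amillepora05825-RA and Amillepora32533-RA.

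Without the low-count filter the cross terms gave 0.668% and the contrast of cross kinds 0.227%; single libraries left out gave 0% to 0.0100% for both. D1 minus SED (0.408%) gave 0.683% with DESeq2, 0.795% unfiltered, 1.03% without the late Ambient libraries and 0.232% to 0.775% without single libraries. D1 minus SS (0.406%) gave 0.8291% unfiltered and 0.242% to 0.540% without single libraries. With lists cut at 2-fold, the share higher at Hot became 70.9% and 24.6% (larval heat), 50% and 44% (D1 against C1, 14 and 25 models), 86.5% (higher in SED) and 17.0% (falling in SED heat). The difference in detected models was -392.3 without the late Ambient libraries. The lone Hot libraries of CUxDR and DRxSB could not be left out where each cross had its own temperature term. No paired analysis was possible because the juvenile labels carry no replicate numbers.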
